A study of Mus musculus with 18 samples.

Results

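The mRNA levels of 10 genes that mark activated and disease-associated microglia (Trem2, Tyrobp, Axl, Clec7a, Itgax, Cd68, Cst7, Apoe, Lpl and Spp1) were read in RNAseq data of the dorsal spinal cord of mice. The genes were taken by name, and all 10 were found among the 34579 loci of each deposited gene table. Where a name had several rows, which was the case for Cst7 with 2 rows, the row with the highest mean level over the groups was read. The tissue was dorsal spinal cord of C57BL/6 mice (C57BL/6N in the methods of the study), labelled as 3 months old, collected 24 h after an injection into the hindpaw of saline or of Complete Freund's Adjuvant (CFA), an oil emulsion with mycobacterial material that causes a lasting local inflammation. At least 3 weeks before, the spinal cord had been injected with a recombinant adeno-associated virus (rAAV) that carried LacZ, the control transgene for bacterial β-galactosidase, HDAC4 wt, the normal class IIa histone deacetylase 4, or HDAC4 3SA, a mutant of HDAC4 that stays in the nucleus. The 6 groups, LacZ, HDAC4 wt and HDAC4 3SA with saline or CFA, held 3 mice each, 18 in all. All of them carried an intraspinal rAAV, so that there was no group without a vector. The vector maps of the study give a CMV promoter, active in many cell types, for LacZ, and a Syn promoter, that of a neuronal gene, for both HDAC4 transgenes, so that LacZ and the HDAC4 vectors differ in promoter as well as in transgene.

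Levels were read as FPKM (fragments counted per kilobase of transcript and relative to the size of the library), of which the tables give 1 pooled value for the 3 mice of a group. The tables give neither the spread between mice nor the depth of a library (the methods of the study state only a minimum of reads), no test could be made, and every difference below is a description of 6 pooled values without an error. Differences are given as log2(FPKM + 0.1), which understates the change of genes with a low level, and a difference beyond 0.5 on this scale is called higher or lower. Levels of the 3 vectors come from separate tables, 1 for each vector, and no batch is stated in the sources used here. Transgene, promoter and any difference in handling between the tables cannot be told apart as sources of a difference between LacZ and the HDAC4 vectors. Nor can transgene and handling be told apart between HDAC4 wt and HDAC4 3SA.

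Microglia are the resident macrophages of the brain and spinal cord. In the undisturbed tissue they carry homeostatic genes such as P2ry12, Tmem119 and Cx3cr1. Around damage, dying neurons, demyelination or protein deposits they take up a different programme, in which homeostatic genes are lowered and genes for phagocytosis, lysosomes and lipid handling are raised. The receptor TREM2 binds lipids and lipoproteins, among them apolipoprotein E, and signals through the adaptor TYROBP (DAP12) and the kinase SYK, and the full disease-associated programme is known to depend on it. In the spinal cord, microglia are best known for their response to peripheral nerve injury. Several of the 10 genes are also used by other cells: Cd68, Itgax, Clec7a and Spp1 by other macrophages and dendritic cells, Apoe by astrocytes, and Lpl by neurons.

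The transgene target Hdac4 was listed at 7.41 FPKM in LacZ saline and 7.72 in LacZ CFA. It was at 10.1 and 10.8 in HDAC4 wt, and at 8.86 and 8.81 in HDAC4 3SA. Whether transcripts of the vector were counted at this locus is not given in the sources used here. The sum of all FPKM was between 638343 and 768051 in the 6 groups. Over 15730 genes (mean over the groups of 0.5 FPKM or more), the median difference between any of the groups compared below was between -0.01 and 0.07 on the log2 scale. Homeostatic microglia genes were present in all groups (P2ry12 at 9.30 to 14.5 FPKM), as were neuronal genes (Snap25 at 646 to 1227 FPKM).

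As the levels of the 10 genes ran largely in parallel, the sequence upstream of their transcription start was examined. RefSeq promoters (GRCm38.p6) matched 8 of the 10 genes, Tyrobp and Lpl being absent from the sequence table. PU.1, the product of Spi1, is the myeloid transcription factor that keeps up the identity of macrophages and microglia, and its core motif GAGGAA was searched on both strands in the 250 bases before the start. It was found in 6 of the 8 genes (Trem2, Axl, Clec7a, Cd68, Apoe and Spp1) and in 23.3% of 32817 promoters of the same length. An AP-1 motif, TGANTCA, was found in 3 of the 8 genes and in 6.75% of all promoters, and a consensus for MEF2, the family of transcription factors that HDAC4 binds, in 0 of the 8 genes and in 2.92% of all promoters. Such a match of letters is a description and not a binding site. Shown are 3 promoters with a PU.1 core, of a sugar receptor, a secreted protein and a lipid receptor. Also shown is that of Cst7, the gene with the widest range of levels, in which the exact string GAGGAA was not found on either strand. Other forms of the motif were not searched. They are written 5′ to 3′ on the strand of the gene, and capitals mark the core or its reverse complement, TTCCTC.
Clec7a, chr6:129472780-129473029, minus strand: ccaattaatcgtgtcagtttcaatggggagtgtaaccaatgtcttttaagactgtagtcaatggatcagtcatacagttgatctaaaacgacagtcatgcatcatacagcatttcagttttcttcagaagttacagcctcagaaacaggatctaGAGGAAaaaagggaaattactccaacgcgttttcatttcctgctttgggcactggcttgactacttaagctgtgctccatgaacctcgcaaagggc
Spp1, chr5:104434861-104435110, plus strand: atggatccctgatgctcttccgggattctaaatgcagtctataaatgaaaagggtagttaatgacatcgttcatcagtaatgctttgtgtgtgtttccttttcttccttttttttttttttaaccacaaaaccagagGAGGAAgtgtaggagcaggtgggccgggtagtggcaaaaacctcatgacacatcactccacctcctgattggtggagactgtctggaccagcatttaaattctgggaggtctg
Trem2, chr17:48346151-48346400, plus strand: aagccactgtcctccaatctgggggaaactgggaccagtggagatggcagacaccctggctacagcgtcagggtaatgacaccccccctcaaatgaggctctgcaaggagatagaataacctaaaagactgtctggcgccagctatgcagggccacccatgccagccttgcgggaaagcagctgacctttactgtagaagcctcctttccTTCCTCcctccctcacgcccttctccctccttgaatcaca
Cst7, chr2:150570165-150570414, plus strand: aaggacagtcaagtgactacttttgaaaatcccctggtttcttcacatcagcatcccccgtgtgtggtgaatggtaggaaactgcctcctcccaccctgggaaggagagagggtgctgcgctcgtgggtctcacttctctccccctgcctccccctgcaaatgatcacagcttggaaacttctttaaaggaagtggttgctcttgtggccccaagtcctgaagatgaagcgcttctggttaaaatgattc
The core lay 91 bases before the start in Clec7a, 108 in Spp1 and 35 in Trem2, counted from the base of the core nearest to the start.

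The level of the 10 genes differed most by vector. In the LacZ groups Cst7, Itgax and Clec7a were below 1 FPKM, whereas in the HDAC4 wt and HDAC4 3SA groups they were between 11.6 and 65.0 FPKM. CFA was followed by higher levels of 9 of 9 genes with a value in HDAC4 3SA mice, by differences of up to 0.51 on the log2 scale in HDAC4 wt mice, and by differences of at most 0.33 in LacZ mice. In saline the HDAC4 3SA group was below the HDAC4 wt group for all 9 genes, and after CFA it was above it for all 9.

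**Figure D1:**
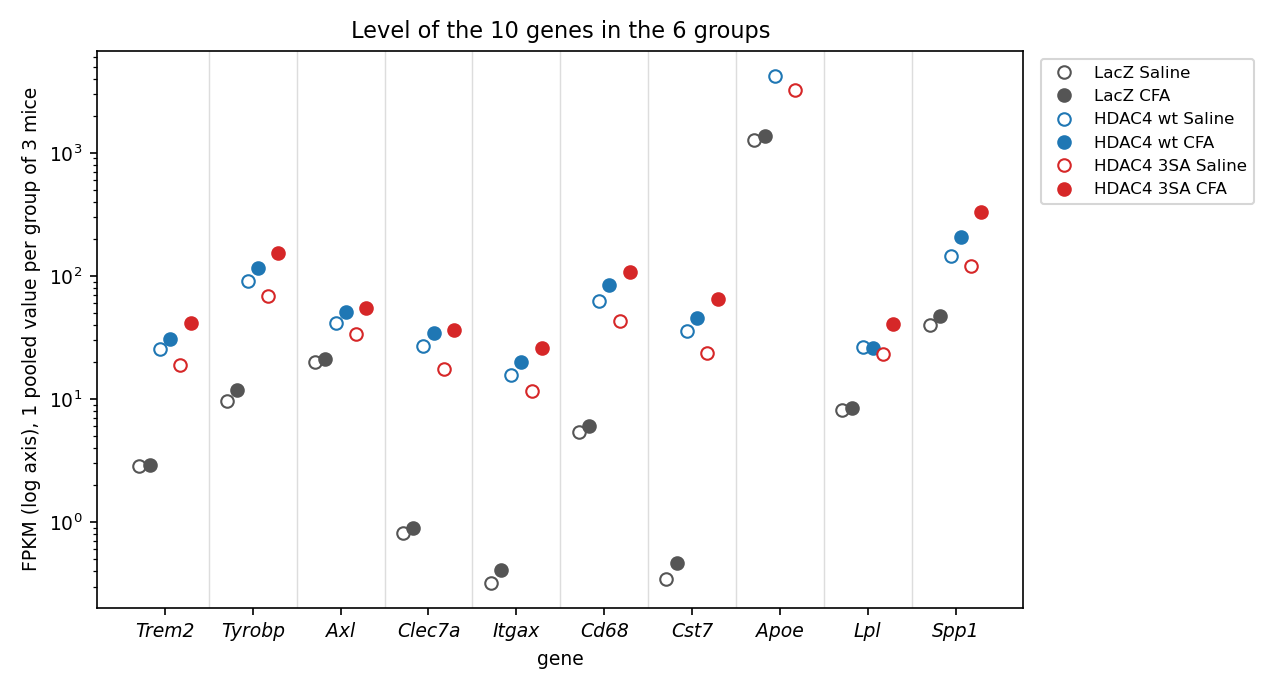
Level of each of the 10 genes (FPKM, log axis) in the 6 groups, 1 pooled value per group of 3 mice and no error. Open circles are saline and filled circles CFA. The Apoe locus could not be estimated in HDAC4 wt and HDAC4 3SA. Its CFA values there are not drawn, and its saline values are drawn as listed. For the 9 genes with all values, the LacZ values lie lowest and HDAC4 3SA CFA lies highest.

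Receptors and their adaptor made up 5 of the 10 genes. Trem2 (chr17:48346401-48354234, plus strand), the lipid receptor named above, was at 2.85 FPKM in LacZ saline and 2.93 in LacZ CFA. It was at 25.4 and 30.7 FPKM in HDAC4 wt saline and CFA, and at 19.0 and 41.1 in HDAC4 3SA saline and CFA. Neither LacZ value came near those of the HDAC4 vectors, and the saline level was 8.90 times as high in HDAC4 wt as in LacZ and 6.67 times as high in HDAC4 3SA. Tyrobp (chr7:30413607-30417678), which encodes the ITAM-bearing adaptor that TREM2 needs at the cell surface, followed the same order at a higher level. It was at 9.62 and 11.8 FPKM in LacZ saline and CFA, at 91.0 and 115 in HDAC4 wt, and at 69.0 and 153 in HDAC4 3SA. The ratio of Tyrobp to Trem2, which compares levels per length, lay between 3.37 and 4.02 in the 6 groups, so that receptor and adaptor kept nearly the same proportion while both differed by about an order of magnitude.

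Clec7a (chr6:129460433-129472778), the β-glucan receptor dectin-1 and a common marker of microglia around plaques, was at 0.819 and 0.903 FPKM in LacZ saline and CFA. It was at 26.9 and 34.6 FPKM in HDAC4 wt, and at 17.5 and 36.4 in HDAC4 3SA. Its saline level was thus 32.9 times that of LacZ in HDAC4 wt and 21.4 times in HDAC4 3SA, and after CFA the HDAC4 vectors differed by a ratio of 1.05 only. GENCODE M21 annotates this gene as a polymorphic pseudogene, a class for genes whose reading frame is not intact in every strain.

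Itgax (chr7:128129452-128150661), the integrin chain CD11c of dendritic cells and of activated microglia, was the least abundant of the 10 genes in every group in which all could be read. It was at 0.323 and 0.411 FPKM in LacZ saline and CFA, at 15.8 and 19.9 in HDAC4 wt, and at 11.6 and 25.9 in HDAC4 3SA. Itgb2, the chain with which it pairs, differed less between vectors. The ratio of Itgax to Itgb2 was 0.128 in LacZ saline and 0.120 in LacZ CFA, and between 0.680 and 0.726 in the 4 groups with an HDAC4 vector.

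Axl (chr7:25757112-25788830), a TAM receptor tyrosine kinase for the uptake of apoptotic cells, differed least from LacZ in saline with either HDAC4 vector. It was at 20.1 and 21.0 FPKM in LacZ saline and CFA, at 41.5 and 50.4 in HDAC4 wt, and at 33.7 and 55.2 in HDAC4 3SA. The saline level was 2.07 times that of LacZ in HDAC4 wt and 1.68 times in HDAC4 3SA. The ratio of Axl to Mertk, its relative that homeostatic microglia use, lay between 4.61 and 5.60 in the 6 groups and was highest in LacZ saline.

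The lysosomal glycoprotein gene Cd68 (chr11:69664171-69666316), a general marker of phagocytes, was at 5.37 and 5.99 FPKM in LacZ saline and CFA. It was at 62.7 and 83.9 FPKM in HDAC4 wt, and at 43.4 and 108 in HDAC4 3SA, where the level after CFA was 2.49 times that after saline. Cst7 (chr2:150570272-150579019) encodes cystatin F, an inhibitor of lysosomal cysteine proteases that resting microglia hardly express. It was at 0.348 and 0.464 FPKM in LacZ saline and CFA, at 35.7 and 45.2 in HDAC4 wt, and at 23.4 and 65.0 in HDAC4 3SA. Its saline level was 103 times that of LacZ in HDAC4 wt and 67.3 times in HDAC4 3SA, the largest ratios among the 10 genes, and they rest on a LacZ level below 1 FPKM.

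Apoe (chr7:19696236-19699753), the lipid carrier of astrocytes and activated microglia, was by far the most abundant of the 10 genes. It was listed at 1263 FPKM in LacZ saline, 1372 in LacZ CFA, 4195 in HDAC4 wt saline and 3213 in HDAC4 3SA saline. In the tables of both HDAC4 vectors this locus carries the mark for too many fragments to be estimated and its CFA value is given as 0. These zeros are failed estimates, so that no CFA difference is given for Apoe in HDAC4 mice, its saline values are given as listed, and it is left out of every count and median that uses those tables. Lpl (chr8:68880526-68906938), lipoprotein lipase, which frees fatty acids from lipoproteins, was at 8.14 and 8.41 FPKM in LacZ saline and CFA. It was at 26.3 and 26.1 FPKM in HDAC4 wt, the only gene of the set with a lower value after CFA, and at 23.1 and 40.9 in HDAC4 3SA.

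Spp1 (chr5:104434923-104441467) encodes osteopontin, a secreted matrix glycoprotein that binds integrins and CD44. It was at 39.9 and 47.6 FPKM in LacZ saline and CFA, at 144 and 206 in HDAC4 wt, and at 121 and 329.5 in HDAC4 3SA. It was the gene with the largest CFA difference in HDAC4 wt, 0.51 on the log2 scale, and had a difference of 1.44 in HDAC4 3SA. Another annotated gene, Gm42793, lies within its locus, and the deposited row could hold fragments of it.

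In the saline groups, all 9 genes were higher with either HDAC4 vector than with LacZ. The differences between HDAC4 wt and LacZ were between 1.04 (Axl) and 6.32 (Cst7) with a median of 3.23 on the log2 scale, and all 9 genes were higher by over 0.5, as were 15.7% of the 15730 genes. The differences between HDAC4 3SA and LacZ were between 0.74 (Axl) and 5.71 (Cst7) with a median of 2.83, and again all 9 genes were higher by over 0.5, against 12.6% of all genes. The median over all genes was 0.07 and 0.05. Both comparisons share the LacZ saline group, so that their likeness is not a repeat of the result. The order of the differences was the same with both vectors: Cst7 came first, followed by Itgax (5.23 with HDAC4 wt and 4.79 with HDAC4 3SA), Clec7a (4.88 and 4.26), Cd68 (3.52 and 2.99), Tyrobp (3.23 and 2.83) and Trem2 (3.11 and 2.69), and Spp1 (1.86 and 1.60), Lpl (1.68 and 1.49) and Axl came last. The 3 genes with the largest differences were those below 1 FPKM in LacZ tissue. With 1 FPKM added in place of 0.1, Clec7a came before Itgax (3.94 and 3.67 with HDAC4 wt, 3.35 and 3.26 with HDAC4 3SA).

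**Figure D2:**
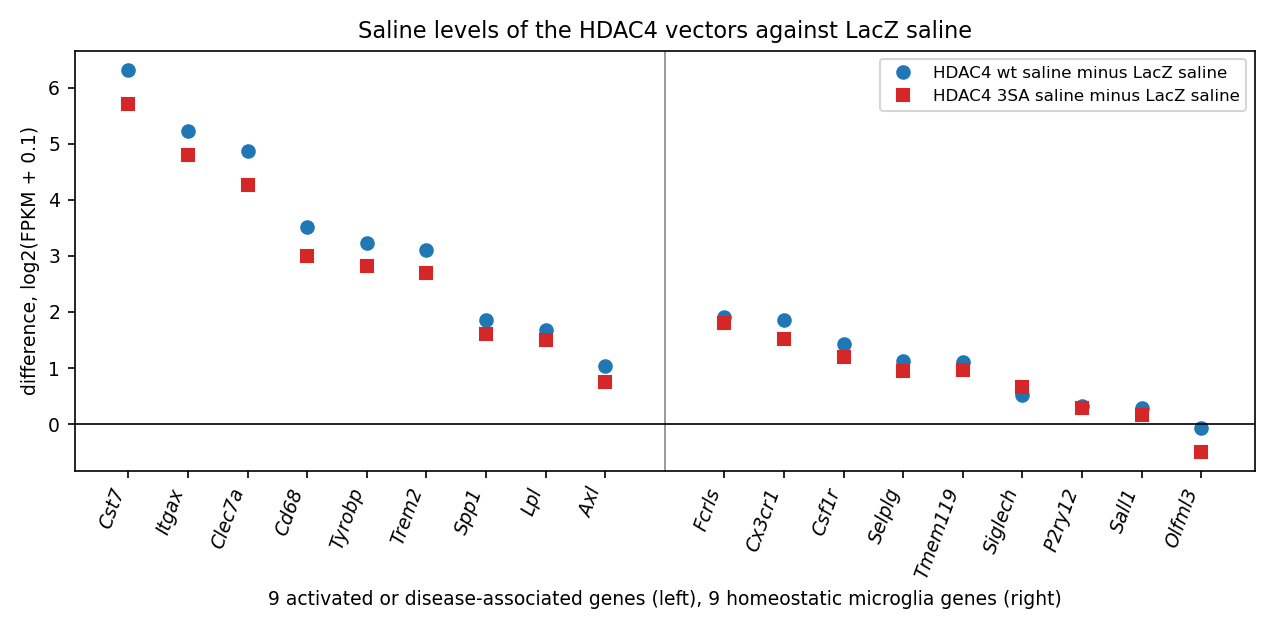
Difference between the saline groups of HDAC4 wt (circles) or HDAC4 3SA (squares) and LacZ saline, on the log2(FPKM + 0.1) scale, for 9 of the 10 genes (left) and 9 of the 10 homeostatic microglia genes (right), without error as there is 1 value per group. Cst7 lies highest at 6.32 and 5.71, and among the homeostatic genes drawn Fcrls lies highest with HDAC4 wt, at 1.91.

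The response to CFA was compared within each vector. In LacZ mice all 10 genes had a higher value after CFA than after saline, but the differences were small, from 0.04 (Trem2) to 0.33 (Cst7) with a median of 0.14. None of them was higher by over 0.5, as were 4.42% of all genes, and the median of all genes was 0.01. In HDAC4 wt mice 8 of 9 genes had a higher value after CFA, with differences from -0.01 (Lpl) to 0.51 (Spp1) and a median of 0.34. Spp1, just past the limit, was the 1 gene higher by over 0.5, a mark that 4.75% of all genes passed.

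In HDAC4 3SA mice all 9 genes were higher by over 0.5 after CFA, as were 8.81% of all genes. Cst7 had the largest difference (1.47, a ratio of 2.77), followed by Spp1 (1.44, 2.72) and Cd68 (1.31, 2.49). Itgax and Tyrobp (both 1.15), Trem2 (1.11) and Clec7a (1.05) were close to each other, and Lpl (0.82) and Axl (0.71) came last. The median of the 9 genes was 1.15, that of all genes 0.01. The median for LacZ, 0.14, lay below the lowest gene in HDAC4 3SA, but whether the vectors differ in their response could not be tested on pooled values.

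**Figure D3:**
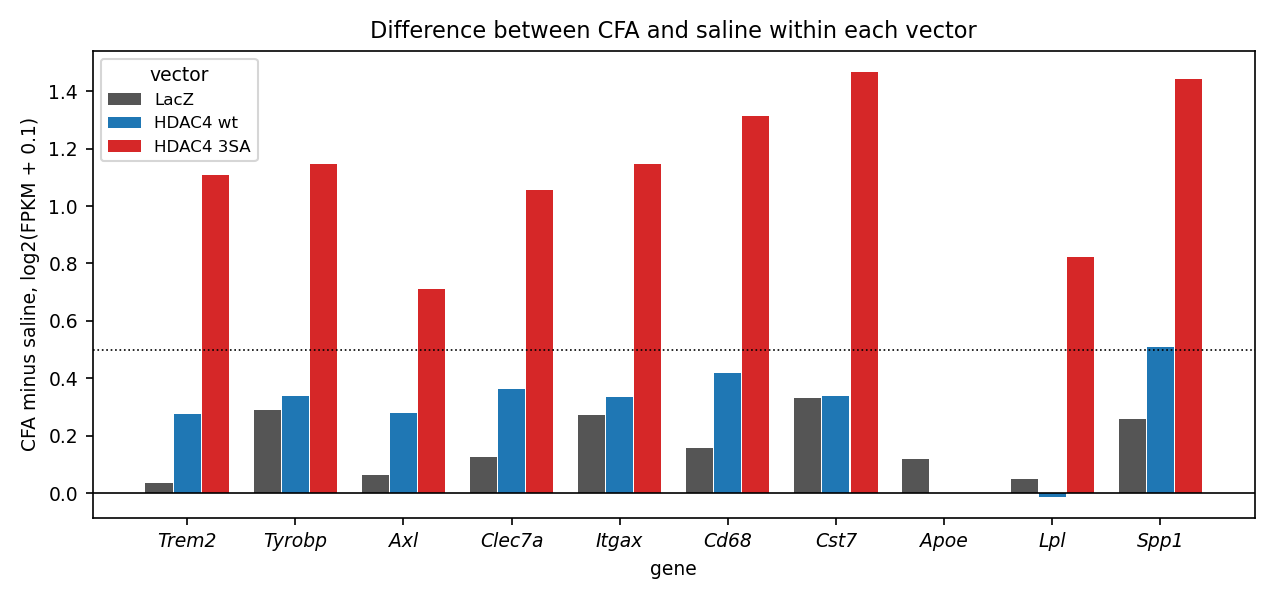
Difference between CFA and saline within LacZ (grey), HDAC4 wt (blue) and HDAC4 3SA (red), on the log2(FPKM + 0.1) scale; bars are 1 value each, without error, and the dotted line marks 0.5. The bars of HDAC4 3SA, from 0.71 (Axl) to 1.47 (Cst7), are the tallest for each gene with a value, and Apoe has a value in LacZ only.

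The HDAC4 vectors were also set against each other. In saline, HDAC4 3SA was below HDAC4 wt for all 9 genes, with differences from -0.62 (Clec7a) to -0.19 (Lpl) and a median of -0.41 on the log2 scale. Clec7a, Cst7 (-0.61) and Cd68 (-0.53) were lower by over 0.5, as were 4.72% of all genes, while 2.58% of all genes and none of the 9 were higher. After CFA, HDAC4 3SA was above HDAC4 wt for all 9 genes, with differences from 0.07 (Clec7a) to 0.68 (Spp1) and a median of 0.41, and Spp1, Lpl (0.65) and Cst7 (0.52) were higher by over 0.5, as were 3.55% of all genes. With both Cst7 rows summed, its difference was 0.36, which leaves 2 genes past the limit. The larger CFA difference of HDAC4 3SA was thus made up of a lower saline value and a higher CFA value, in about equal parts for Trem2 (-0.41 in saline and 0.42 in CFA), Tyrobp (-0.40 and 0.41) and Itgax (-0.44 and 0.38). For Clec7a it came almost wholly from the saline value, and for Lpl and Spp1 mostly from the CFA value. Other markers moved with this comparison too. In saline, the median difference between HDAC4 3SA and HDAC4 wt was -0.79 for T and NK cell genes (4 of 5 lower by over 0.5), -0.49 for B and plasma cell genes (3 of 6 lower) and -0.46 for monocyte genes (1 of 4 lower), but 0.54 for neutrophil genes (5 of 6 higher) and 0.70 for motor neuron genes (5 of 6 higher). After CFA these medians were -0.41, -0.27, -0.46, 0.42 and 1.05, in the same order. Schwann cell genes changed sign between the treatments, opposite to the 9 genes, with a median of 0.39 in saline (5 of 5 above 0) and -0.24 after CFA (0 of 5 above 0). The part of these markers in the differences of the 9 genes was not tested. The values of each gene are 4 pooled estimates from separate tables. The level of a saline group enters both the comparison between vectors and the CFA difference.

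**Figure D4:**
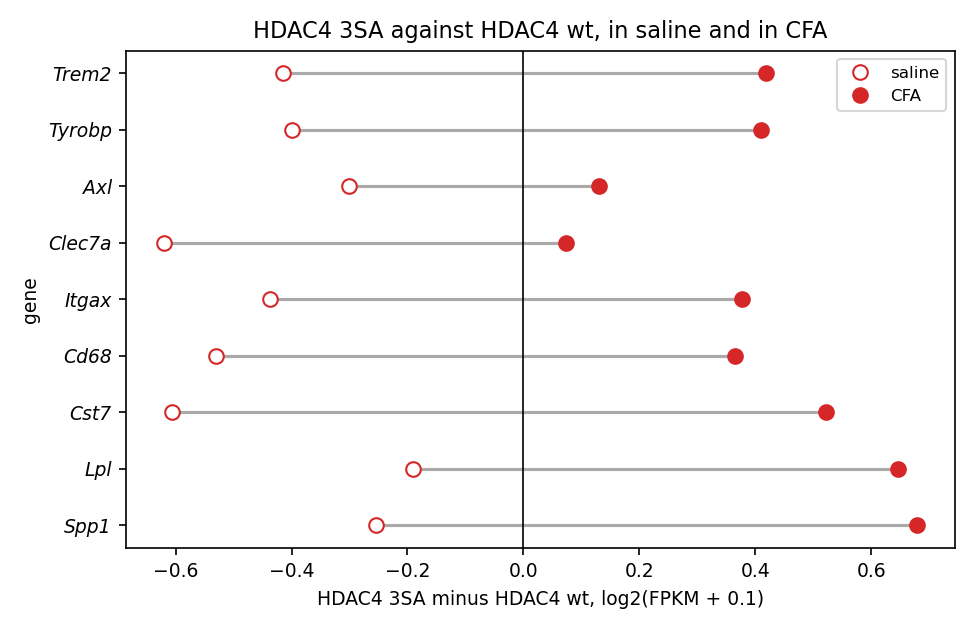
Difference between HDAC4 3SA and HDAC4 wt on the log2(FPKM + 0.1) scale for the 9 genes with a value in all groups, in saline (open) and in CFA (filled), 1 value each without error. All saline points lie below 0, from -0.62 to -0.19, and all CFA points above 0, from 0.07 to 0.68.

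In tissue RNA, more cells of a type and more RNA per cell cannot be told apart. The set was therefore read beside 10 homeostatic microglia genes. These too were higher with the HDAC4 vectors, though less: the median difference to LacZ in saline was 1.12 with HDAC4 wt and 0.96 with HDAC4 3SA, with 7 of 10 genes higher by over 0.5 in each. Csf1r, the receptor for the growth factors on which microglia depend, was at 23.1 FPKM in LacZ saline, 62.3 in HDAC4 wt saline and 52.9 in HDAC4 3SA saline, and Fcrls, an Fc receptor-like gene of microglia, at 2.53, 9.78 and 9.15. P2ry12, the purinergic receptor by which resting microglia sense ATP and which was picked after its values were seen, was at 11.1, 13.9 and 13.6 FPKM, in a locus that overlaps 6 other protein-coding genes.

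After CFA, the median of the homeostatic genes differed from saline by 0.02 (LacZ), 0.19 (HDAC4 wt) and 0.46 (HDAC4 3SA). In HDAC4 3SA 5 of 10 homeostatic genes were higher by over 0.5, with Fcrls at a difference of 1.20 and Csf1r at 0.56. The median level of the 9 activated genes minus that of the homeostatic genes, set to 0 in LacZ saline, was 0.11 in LacZ CFA, 1.89 in HDAC4 wt saline, 2.03 in HDAC4 wt CFA, 1.36 in HDAC4 3SA saline and 2.10 in HDAC4 3SA CFA. Both sets of genes thus differed in the same direction, and the activated genes by more.

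Genes of the same pathways were read from lists. Of the other disease-associated genes, 17 could be read, and 12 of them were higher by over 0.5 in saline with each HDAC4 vector, with a median of 1.16 with HDAC4 wt and 1.19 with HDAC4 3SA. Lgals3, which encodes the galactoside-binding galectin-3, was at 3.12 FPKM in LacZ saline, 38.3 in HDAC4 wt saline and 24.2 in HDAC4 3SA saline. Ctsb, a lysosomal cysteine protease, was at 198, 392 and 342 FPKM, and Ch25h, which makes 25-hydroxycholesterol, at 0.379, 3.10 and 3.50. Fth1, the ferritin heavy chain, showed little difference, with 1935, 2112 and 2051 FPKM. Ctsd, picked after its values were seen, was listed below 1 FPKM in all groups, and its row may not hold the main transcript of this lysosomal protease. After CFA, 2 of the 17 were higher by over 0.5 with LacZ, also 2 with HDAC4 wt, and 10 with HDAC4 3SA, where the median was 0.62, with Ch25h at 1.40, Lgals3 at 1.38 and Ctsb at 0.71. In LacZ 2 of the 17 genes were lower by over 0.5, as were 351 of the 15730 genes. Cd63 (-1.37, from 3.58 to 1.32 FPKM) and Igf1 (-1.24, from 1.39 to 0.530 FPKM) were these 2, picked after their values were seen. The Cd63 row was between 1.32 and 5.54 FPKM in the 6 groups and covered 73.8% of the exon bases. It too may not hold the main transcript.

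Of 12 genes of TREM2 and dectin-1 signalling, 8 were higher by over 0.5 in saline with each HDAC4 vector (median 1.92 with HDAC4 wt and 1.52 with HDAC4 3SA). Hcst, the adaptor DAP10, was at 0.277 FPKM in LacZ saline, 2.70 in HDAC4 wt saline and 2.13 in HDAC4 3SA saline, and Spi1, which encodes PU.1, was at 2.45, 15.8 and 11.6. Adam10, a protease that sheds the TREM2 ectodomain and is used by many cells, was at 29.3, 34.6 and 35.3. After CFA the median of these 12 genes was 0.13 with LacZ, 0.31 with HDAC4 wt and 0.79 with HDAC4 3SA. In HDAC4 3SA 8 of them were higher by over 0.5, among them Hcst (1.14) and Spi1 (0.95), whereas Adam10 had a difference of -0.06. Hcst and Spi1 were also the 2 genes of this list higher by over 0.5 in LacZ, with differences of 0.65 and 0.79, and 0 of 12 passed this limit in HDAC4 wt.

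The TAM list holds the relatives and ligands of Axl. Mertk was at 3.59 FPKM in LacZ saline, 8.40 in HDAC4 wt saline and 7.30 in HDAC4 3SA saline, and the ligands Gas6 (57.8, 97.8 and 94.8) and Pros1 (9.39, 24.7 and 21.4) were higher with the HDAC4 vectors as well. Tyro3, the neuronal member of the family, was at 23.9, 22.7 and 22.1 FPKM. After CFA in HDAC4 3SA, Mertk differed by 0.64, Pros1 by 0.59, Gas6 by 0.49 and Tyro3 by 0.16.

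Of the 6 partners of Itgax and Spp1, 3 were higher by over 0.5 in saline with each HDAC4 vector, the leukocyte integrin chains and CD44. The other integrin chains stayed below this limit, with Itgb1 at differences of 0.44 with HDAC4 wt and 0.41 with HDAC4 3SA. Itgb2 was at 2.52 FPKM in LacZ saline, 22.6 in HDAC4 wt saline and 16.6 in HDAC4 3SA saline, and Itgam, the chain CD11b, at 4.68, 16.5 and 14.5. Itgav was at 17.2, 19.5 and 19.8 FPKM and Itgb1 at 24.6, 33.4 and 32.6. After CFA 3 of the 6 were higher by over 0.5 in HDAC4 3SA, with Itgb2 at 1.10 and Itgam at 0.88, and 0 of 6 in LacZ and in HDAC4 wt.

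Genes of lipid export and lysosomal lipid handling, which act on the lipids that Apoe and Lpl move, differed less as a list. The median of 9 genes in saline was 0.23 with HDAC4 wt and 0.25 with HDAC4 3SA. Abca1, the exporter that loads cholesterol onto apolipoproteins, was at 5.43 FPKM in LacZ saline, 20.0 in HDAC4 wt saline and 17.0 in HDAC4 3SA saline, and Npc2, a lysosomal cholesterol carrier, at 33.7, 69.0 and 55.6. Lrp1, a lipoprotein receptor of many cells, was at 41.3, 43.6 and 49.1 FPKM. In HDAC4 3SA after CFA 3 of the 9 were higher by over 0.5, among them Npc2 (0.73) and Abca1 (0.71).

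Markers of other cell types moved with the vectors as well, and their part in the levels of the 10 genes was not tested. B and plasma cell genes summed to 1.29 FPKM in LacZ saline, 299.8 in HDAC4 wt saline and 193 in HDAC4 3SA saline, with 6 of 6 genes higher by over 0.5 in each. Most of this was Jchain, the joining chain of secreted antibodies, at 0.205, 262 and 167 FPKM. Monocyte genes summed to 1.11, 54.6 and 33.2 FPKM (4 of 4 higher in each), mostly Ly6c2, a surface marker of inflammatory monocytes that other leukocytes also carry, at 0.172, 48.2 and 28.0. T and NK cell genes summed to 0.588, 7.03 and 4.09 FPKM (5 of 5 higher in each), with Cd4 at 0.0708, 1.86 and 0.948. Neutrophil genes were higher as well (6 of 6 in each), with a median of 1.78 with HDAC4 wt and 2.35 with HDAC4 3SA. For border macrophages, 5 of 8 genes were higher by over 0.5 with HDAC4 wt and 2 of 8 with HDAC4 3SA. Ms4a7, which border macrophages and activated microglia share, was at 0.515, 19.4 and 11.3 FPKM, but Pf4 only at 1.98, 3.42 and 3.34. Of the dendritic cell list 2 genes could be read, with Flt3 at 5.83, 3.34 and 4.59 FPKM and Zbtb46 at 2.35, 2.61 and 2.61. Clec9a was below 0.5 FPKM in all groups, at 0.0361, 0.474 and 0.0764 in saline. Gfap, raised in reactive astrocytes, was at 389, 807 and 805 FPKM, whereas Snap25, a neuronal synaptic gene, was at 1227, 795 and 861. The median of 7 astrocyte genes was -0.22 with HDAC4 wt and -0.14 with HDAC4 3SA. That of 6 oligodendrocyte genes was 0.17 and 0.09, of 6 endothelial genes 0.33 and 0.29, of 6 leptomeningeal fibroblast genes 0.46 and 0.35, and of 3 cell cycle genes 0.69 and 0.53. Motor neuron genes, which mark the ventral horn, had medians of -1.004 with HDAC4 wt (6 of 6 lower by over 0.5) and -0.37 with HDAC4 3SA (2 of 6 lower), with Prph at 20.8, 8.81 and 15.6 FPKM. The medians of dorsal spinal neuron genes were -0.34 and -0.31, and those of Schwann cell genes 0.02 and 0.46.

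The markers that moved with CFA were in part others. Neutrophil genes summed to 11.0 FPKM in LacZ saline and 112 in LacZ CFA, with 6 of 6 genes higher by over 0.5 and S100a9 at 4.96 and 52.8 FPKM, in the vector in which the 10 genes differed least. In HDAC4 wt the sum was 41.3 after saline and 28.4 after CFA, and in HDAC4 3SA 61.6 and 38.3, where 6 of 6 genes were lower. Monocyte genes differed by a median of 1.70 with LacZ, 0.01 with HDAC4 wt and 0.17 with HDAC4 3SA. In HDAC4 3SA 1 of 4 was higher by over 0.5, Ly6c2 (28.0 FPKM after saline and 41.6 after CFA). There 1 of 4 was also lower by over 0.5, Chil3 (1.25 and 0.533 FPKM). B and plasma cell genes had medians of 0.77 with LacZ (4 of 6 higher by over 0.5), 0.14 with HDAC4 wt and 0.33 with HDAC4 3SA. T and NK cell genes had medians of 0.27, 0.64 and 1.03, the same order as the 10 genes. Border macrophage genes had medians of 0.26 with LacZ (2 of 8 higher by over 0.5), 0.04 with HDAC4 wt (0 of 8) and 0.11 with HDAC4 3SA (2 of 8). Among these genes, Ms4a7 was at 11.3 and 27.9 FPKM in HDAC4 3SA saline and CFA, and Pf4 at 3.34 and 3.49.

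Markers of neurons and nerve roots also differed between the saline and the CFA groups. Motor neuron genes had median CFA differences of 0.36 with LacZ, 1.11 with HDAC4 wt and 1.27 with HDAC4 3SA, with Prph at 8.81 and 21.9 FPKM in HDAC4 wt and at 15.6 and 43.5 in HDAC4 3SA. Schwann cell genes, which mark nerve roots, had medians of 0.63, -0.04 and -0.74. Genes of dorsal spinal neurons had medians of -0.07, -0.16 and -0.35, with Gad1 at 91.3 and 64.0 FPKM in HDAC4 3SA. Astrocyte (-0.08, 0.15 and -0.03), oligodendrocyte (0.08, 0.19 and 0.13) and endothelial medians (0.09, 0.16 and 0.25) lay closer to 0, and the leptomeningeal fibroblast median was highest with LacZ (0.51, 0.23 and 0.13). The part of these differences in the CFA differences of the 10 genes was not tested.

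**Figure D5:**
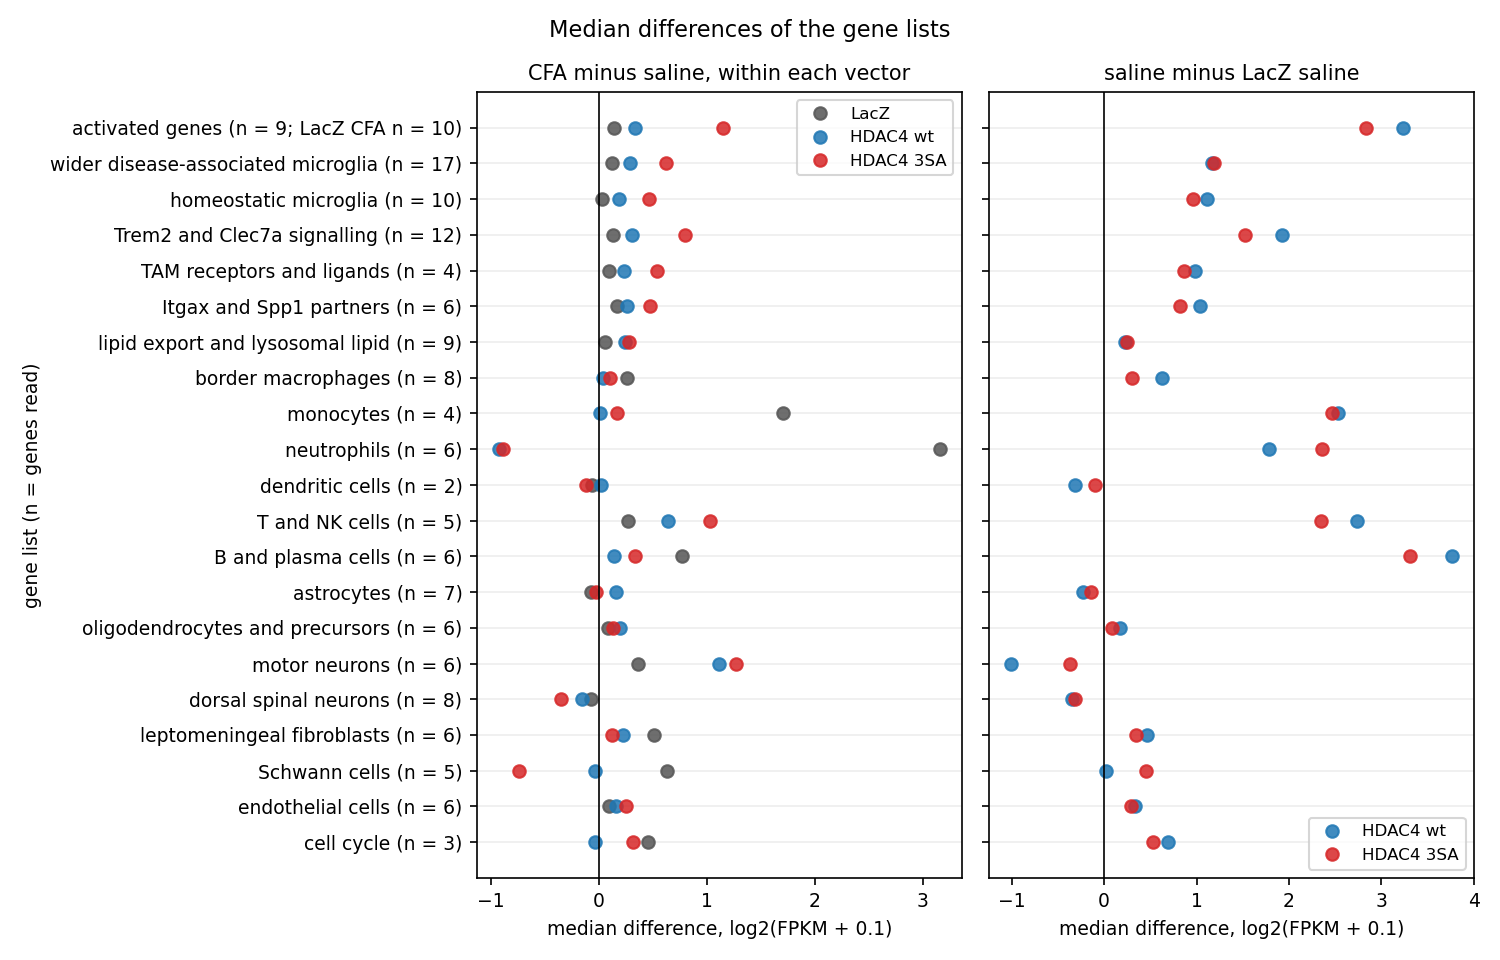
Median log2(FPKM + 0.1) difference of each gene list, with the number of genes read, for CFA minus saline within each vector (left) and for the HDAC4 saline groups minus LacZ saline (right); points are medians over genes of 1 pooled value each and carry no error. The studied set is the top row, at 0.14, 0.34 and 1.15 on the left and 3.23 and 2.83 on the right; the neutrophil list in LacZ reaches 3.16.

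Among 14223 other genes (mean over the groups of 1 FPKM or more), those nearest to the mean profile of the 9 genes over the 6 groups were looked up by the root mean square distance of the centred log2 levels. The nearest was Plau, the urokinase plasminogen activator, at a distance of 0.0391. Plau was at 1.44 and 1.66 FPKM in LacZ saline and CFA, at 17.0 and 19.7 in HDAC4 wt, and at 12.5 and 28.5 in HDAC4 3SA. Next came Mpeg1, the pore-forming perforin-2 of macrophages, at 0.0713, with 9.35 and 9.45 FPKM in LacZ, 105 and 131 in HDAC4 wt and 75.0 and 171 in HDAC4 3SA. They were followed by Cd48 (0.0798), a ligand of the SLAM family on leukocytes, C3ar1 (0.0945), the receptor for complement C3a, Lgals3bp (0.0971), a secreted galectin-binding protein, Slc15a3 (0.110), a lysosomal peptide transporter, Cd180 (0.126), a Toll-like receptor homologue, and Lgals3 (0.130). The lowest Pearson's r of these 8 genes with the mean profile over the 6 groups was 0.998 (Lgals3). This value is set mostly by the contrast between LacZ and the other vectors, and the 6 values come from 3 separate tables. Of the set itself, Cd68 (0.0866), Tyrobp (0.118) and Trem2 (0.133) lay nearest to their common mean, whereas Cst7 (1.33), with a wider range, and Axl (1.13), with a narrower range, lay farthest.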

How the data were processed

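RNAseq was analysed for 6 groups of 3 mice. Per the labels and the methods of the study, the authors mapped reads with TopHat and Bowtie to GRCm38 (mm10) and estimated levels with Cufflinks and Cuffdiff, with 1 table for each of the 3 vectors. The deposited FPKM values are 1 estimate per group, pooled over its mice and normalised by the authors. Whether the 3 vectors were normalised together is not stated. Columns with the authors' fold changes, test statistics, p-values and q-values were not used. The methods of the study state a minimum of reads per sample, but the tables hold no counts and no depth of a library, so that no interval can be given.

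Values were read with Python 3.11.15 and pandas 2.3.3. Loci were matched by identifier, and 386 loci whose places do not overlap between tables and 19 loci without an estimate were left out. Differences were computed on log2(FPKM + 0.1), medians and shares over 15730 genes (mean over the groups of 0.5 FPKM or more), with a limit of 0.5 as in the methods of the study (log2; a ratio of 1.41). Scripts were tested on simulated data. The 20 other lists held 157 genes, of which 136 were read; values of 2 of these genes are not reported here; list rows covering less than 50% of a gene's exon bases (GENCODE M21) were left out. From each list the 2 most abundant genes and the 2 with the largest CFA difference could be named, and of genes alike to the set the 8 nearest; other names were chosen after their values were seen. The genes and lists were chosen with earlier results of these data known. Several genes of a list can share cells as a source and are not replicates.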

Additional observations from a re-analysis of the deposited data

Results flagged for a closer look

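A second row named Cst7 at the same locus was not used in the comparisons, as it has the lower mean level. It was listed at 0 in both LacZ groups, at 5.43 FPKM in HDAC4 wt saline, 11.1 in HDAC4 wt CFA, 2.21 in HDAC4 3SA saline and 7.19 in HDAC4 3SA CFA. It was taken up here because a signal is present in data outside the main row in the HDAC4 groups, while the LacZ groups are listed at 0. What transcript this row stands for is not given in the sources used here, and with 1 pooled value per group its spread is unknown.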

How the results depend on the processing

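No paired analysis was possible because the tables hold 1 pooled value per group and none per mouse, and for the same reason no mouse could be left out in turn. A shift of up to 0.1 on the log2 scale, or of a count by up to 1.5 times, was taken as no change, since no spread between replicates is known. No log2 difference of the 10 genes, their median or their excess over the homeostatic genes turned its sign under the alternatives run. With 1 FPKM added in place of 0.1, the median saline difference to LacZ was 3.12 for HDAC4 wt and 2.72 for HDAC4 3SA, and the excess of the activated over the homeostatic genes was 1.76 in HDAC4 wt saline, 1.91 in HDAC4 wt CFA, 1.25 in HDAC4 3SA saline and 1.98 in HDAC4 3SA CFA. The saline differences of Itgax and Cst7 with HDAC4 wt then fell to 3.67 and 4.77, and with 0.01 FPKM added they were 5.57 and 6.64, so that their size depends on the constant, as does that of Clec7a (3.94 and 5.02). With all rows of a name summed, the same excess was 0.29 in LacZ CFA, 2.43, 2.49, 1.83 and 2.41 in the other groups, as Cx3cr1, Sall1, Fcrls and Cst7 have several rows. With a minimum of 2 FPKM it was 1.81 in HDAC4 wt CFA. Centring each group on genes above 5 FPKM left 0 genes higher after CFA in HDAC4 wt. With a log2 limit of 1, 0 genes were higher after CFA in HDAC4 wt, 0 were lower in HDAC4 3SA than HDAC4 wt in saline, and 0 were higher in HDAC4 3SA than HDAC4 wt after CFA. Listing Apoe's saline values and keeping list rows of low exon coverage, both chosen after seeing the data, moved no value of the 10 genes by more than these tolerances, but the second moved 4 medians of the other gene lists, all of the cell cycle list, and turned 1 of them, after CFA in HDAC4 wt, from -0.04 to 0.0030. Of the 140 medians of these lists, 7 turned their sign with no minimum level, 6 of the dendritic cell list (from -0.32 to 0.15 in HDAC4 wt saline against LacZ saline) and 1 of the cell cycle list. With centring 3 turned, with rows summed 1, and with a minimum of 2 FPKM 1 of the 126 that could be computed, that of the border macrophages in HDAC4 3SA against HDAC4 wt after CFA (from -0.09 to 0.06). With 1 FPKM added 40 of the 140 moved and 0 turned.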
